A study of Mus musculus with 39 samples.

Results

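The Zfp genes are named for zinc finger proteins, and the numbered Zfp symbols of the mouse cover a large group of genes that share a finger-type domain rather than a function. From the 374 genes of the table whose symbol is Zfp followed by a number only, 119 were taken because their mean level over the 9 libraries of intact embryos was at least 10 CPM (counts per 1000000 counts of the library), with Zfp352 set aside by rule. The table holds 55487 genes in all. Since the intact embryos chose the genes, levels and stage differences in intact embryos are given as a description without a test, and tests were made in separated embryos, which the choice did not use. Just inside the threshold lay Zfp946 (10.8 CPM), Zfp759 (10.8 CPM) and Zfp180 (10.4 CPM), and just outside Zfp42 (9.97 CPM), Zfp808 (9.77 CPM) and Zfp30 (9.60 CPM). Zfp42 encodes Rex1, a marker of naive embryonic stem cells.

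All embryos were wild-type mouse embryos at the 2-cell or the 4-cell stage, sequenced by Smart-seq2, a full-length method that primes on the poly(A) tail and amplifies by PCR. The 39 libraries came from 19 embryos: 5 intact 2-cell embryos, 5 separated 2-cell embryos with 2 blastomere libraries each, 4 intact 4-cell embryos, and 5 separated 4-cell embryos with 4 blastomere libraries each. An intact embryo is 1 library and a separated embryo is the sum of its blastomere libraries, so that separation cannot be told apart from library input. Separated 4-cell embryos 2, 3 and 4 belong to batch 1 of the labels, as do all embryos of the other groups, and separated 4-cell embryos 6 and 7 make up batch 2. The labels name no strain, age or animal. They do not say that the embryos came from different animals, and p-values therefore speak of the variation among the embryos at hand.

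Most proteins of this kind bind DNA through an array of C2H2 fingers, in which a pair of cysteines and a pair of histidines hold a zinc ion. Many of them also carry a KRAB box (Krüppel-associated box), which recruits the corepressor Trim28 and through it the histone methyltransferase Setdb1, and KRAB zinc finger genes lie in clusters of close relatives that arose by duplication. In the early embryo such proteins are known for guarding imprinted DNA methylation and for silencing retroelements, at a time when maternal transcripts are cleared and the embryo's own genome becomes active. Other Zfp genes serve RNA, ribosomes or the spindle and share little with the KRAB genes beyond the name.

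All 119 genes matched a GENCODE M21 entry on GRCm38, and 118 of them had a coding sequence that could be translated; the remaining gene, Zfp939, is annotated as a transcribed pseudogene. A script counted C2H2 fingers as the spacing C-X(2 to 4)-C-X(12)-H-X(3 to 5)-H and found a median of 10.5 per protein, from 0 in Zfp330, Zfp707 and Zfp957 to 30 in Zfp236. A sequence pattern of the KRAB A box was present in 71 proteins and absent from 47, with a median of 11 fingers in the former and 6 in the latter. The translated sequence of Zfp707 held an internal stop, so its 0 fingers and its place among the 47 are uncertain. Chromosome 17 held 25 of the genes, chromosome 7 held 15 and chromosome 4 held 13. When genes no more than 1 Mb apart were chained, 47 genes fell into 8 clusters of at least 3. The largest, with 13 genes, spanned chr17:21008903-22456689, and the next, with 11 genes, spanned chr4:145510759-147809788. Every gene of these 2 clusters carried the KRAB A pattern.

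Promoters of 6 genes are shown: those of 4 genes of the chromosome 4 cluster, to compare Zfp979 and Zfp982, which fell at the 4-cell stage, with Zfp981 and Zfp984, which were not called, and those of Zfp560, which had the lowest log2 fold change, and Zfp511, which had no count in separated 2-cell embryos. The 250 bases before a RefSeq start site (GRCm38.p6) are written 5′ to 3′ on the gene's strand, and capitals mark GGGCGG or its complement CCGCCC (the GC box core) and TAATTA (a homeobox core, the same on both strands). The windows are chr4:147642509-147642758, minus strand, for Zfp979; chr4:147492167-147492416, plus strand, for Zfp982; chr4:146514670-146514919, plus strand, for Zfp981, which lies inside the GENCODE gene; chr4:147809789-147810038, minus strand, for Zfp984. Zfp560 is given at chr9:20385159-20385408, minus strand, and Zfp511 at chr7:140036141-140036390, plus strand.
Zfp979: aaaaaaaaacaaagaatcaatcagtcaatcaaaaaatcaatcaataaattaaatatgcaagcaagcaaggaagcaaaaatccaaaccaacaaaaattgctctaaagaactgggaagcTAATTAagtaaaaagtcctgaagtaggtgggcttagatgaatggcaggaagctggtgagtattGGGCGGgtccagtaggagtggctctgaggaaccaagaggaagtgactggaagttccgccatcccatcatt
Zfp982: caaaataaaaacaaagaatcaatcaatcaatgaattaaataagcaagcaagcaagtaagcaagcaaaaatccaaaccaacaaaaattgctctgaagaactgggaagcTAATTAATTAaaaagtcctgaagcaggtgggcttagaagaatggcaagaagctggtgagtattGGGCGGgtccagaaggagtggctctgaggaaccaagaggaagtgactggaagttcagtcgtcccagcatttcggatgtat
Zfp981: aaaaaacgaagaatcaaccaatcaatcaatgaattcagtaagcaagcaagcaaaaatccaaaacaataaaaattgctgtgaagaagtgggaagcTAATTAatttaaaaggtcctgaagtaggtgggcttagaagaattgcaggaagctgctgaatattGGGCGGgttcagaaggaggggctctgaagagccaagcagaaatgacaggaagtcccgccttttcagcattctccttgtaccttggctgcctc
Zfp984: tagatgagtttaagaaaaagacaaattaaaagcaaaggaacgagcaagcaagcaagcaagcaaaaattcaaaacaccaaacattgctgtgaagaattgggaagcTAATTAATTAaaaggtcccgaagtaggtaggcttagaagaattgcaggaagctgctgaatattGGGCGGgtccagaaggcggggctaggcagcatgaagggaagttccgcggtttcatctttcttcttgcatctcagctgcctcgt
Zfp560: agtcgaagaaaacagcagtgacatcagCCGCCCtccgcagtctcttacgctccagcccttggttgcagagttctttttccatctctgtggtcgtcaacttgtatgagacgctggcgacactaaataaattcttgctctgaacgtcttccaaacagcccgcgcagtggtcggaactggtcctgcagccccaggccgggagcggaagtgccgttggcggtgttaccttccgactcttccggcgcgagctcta
Zfp511: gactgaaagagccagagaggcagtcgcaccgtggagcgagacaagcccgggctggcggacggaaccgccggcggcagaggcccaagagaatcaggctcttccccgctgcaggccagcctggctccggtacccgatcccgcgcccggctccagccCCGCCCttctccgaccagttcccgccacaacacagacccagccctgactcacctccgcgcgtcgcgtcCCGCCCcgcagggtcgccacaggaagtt

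The 4 chromosome 4 windows read as variants of 1 sequence, with TAATTA followed by GGGCGG in each. Aligned end to end, those of Zfp979 and Zfp982 were identical at 83.6% of positions, those of Zfp982 and Zfp981 at 76.4% and those of Zfp979 and Zfp984 at 65.3%, while Zfp979 and Zfp560 shared 45.6%. Counted on both strands, GGGCGG occurred in 32.7% and TAATTA in 4.84% of the 32851 promoter windows of the table, and both together in 0.566%. Of the 9 cluster genes with an entry, 8 had a window with both. The motifs were picked after the sequences had been read, and a match is a description of letters, not a binding site. The cluster windows held a median of 2 CpG dinucleotides, against 10 over the 131 windows of the 99 genes with an entry and 6 over all windows, and the windows of Zfp560 and Zfp511 held 19 and 26. Zfp979 and Zfp982, which were called lower at the 4-cell stage, share most letters of these windows with Zfp981 and Zfp984, which were not called. Not called does not mean unchanged. In Zfp984 every separated 4-cell embryo was below every separated 2-cell embryo (log2 fold change -1.30), while in Zfp981 the groups overlapped (-0.20). The difference between the genes was not tested.

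Library totals were 7157820 to 9889932 counts in intact 2-cell embryos, 5930828 to 44048051 per blastomere at the 2-cell stage, 2738239 to 4194075 in intact 4-cell embryos, and 2404472 to 5232480 (batch 1) and 2019179 to 31576263 (batch 2) per 4-cell blastomere. The 119 genes took 0.523% to 1.001% of a blastomere library. Summed markers of oocyte and embryo ranged from 6263 to 31649 CPM. Those of cumulus and granulosa cells stayed at or below 4.15 CPM and those of sperm at or below 25.6 CPM, those of blood reached 50.6 CPM and those of oviduct 135 CPM, and their part in the results was not tested.

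In the intact embryos the 119 genes spanned a wide range, with a median of 31.99 CPM; 36 lay between 10 and 20 CPM, 48 between 20 and 50, 16 between 50 and 100, and 19 above. Per kb of exon the highest was Zfp706, a protein of a single finger that has been linked to the exit of stem cells from self-renewal, at 212 CPM per kb and a mean of 1058 CPM. Its values in embryos, scaled by TMM (a normalisation of library composition by edgeR), were 1154, 1264, 772, 892 and 922 CPM in intact 2-cell and 1318, 1196, 576 and 1428 CPM in intact 4-cell embryos. Separated 2-cell embryos had 999, 1641, 1182, 1096 and 859 CPM, and separated 4-cell embryos 1293, 1356, 1578, 402 and 440.2 CPM. The last 2 values, from batch 2, lay below those of every other embryo, and the stage difference (log2 fold change 0.29, SE 0.27, edgeR adjusted p = 0.546) did not pass the test.

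In levels per kb of exon, the KRAB genes Zfp982 (145 CPM per kb, mean 216 CPM), Zfp936 (105 CPM per kb, mean 345 CPM) and Zfp979 (85.8 CPM per kb, mean 353 CPM) followed. Zfp639, which lacks the KRAB pattern, had a mean of 208 CPM and stood at rank 9 per kb, with 38 CPM per kb. Separated embryos varied widely in Zfp936, with 419, 816, 95.1, 882 and 331 CPM at the 2-cell and 177, 493, 452, 80.3 and 109 CPM at the 4-cell stage. Its groups overlapped (log2 fold change -0.44, SE 0.65, edgeR adjusted p = 0.727). Zfp639 had 498, 424, 112, 569 and 224 CPM in separated 2-cell and 209, 245, 123, 35.4 and 62.8 CPM in separated 4-cell embryos, again with overlap (log2 fold change -0.92, SE 0.54, edgeR adjusted p = 0.276).

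Between the separated 2-cell and 4-cell embryos, 6 of the 119 genes were higher and 9 lower at the 4-cell stage (edgeR quasi-likelihood F-test over 14119 genes, Benjamini-Hochberg adjusted p under 0.05). The 4-cell level of this test is that of batch 1, since batch is a term of the fit. Among all genes tested, 11.1% were called, 6.4% higher and 4.7% lower, so the 15 genes, or 12.6% of the members, are close to the background and their number is no result about Zfp genes. The counts also move with single embryos: without separated 4-cell embryo 2, 3 or 4 the genes called lower were 3, 4 and 5, without separated 2-cell embryo 4 they were 5, and without both batch 2 embryos they were 5. Lower calls over all genes were 664 in the full fit and 393, 396, 329, 679 and 575 in the same order. The members called higher were 3 without separated 4-cell embryo 4 and 10 without separated 2-cell embryo 3. Higher calls over all genes went from 904 to 482 and 703 in these 2 fits. The median log2 fold change of the 119 genes was -0.63, with 43 above 0 and 76 below, beside a median of -0.15 over all genes. Embryo groups did not overlap in 24 of the 119 genes (11 with the 4-cell embryos above and 13 below), or 20.2%, against 14.1% of all genes. CPM are shares of a library, so a lower value of a gene and a larger amount of other transcripts cannot be told apart.

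Zfp560, a KRAB gene of 15 fingers at chr9:20345136-20385177, fell most. Separated 2-cell embryos had 349.6, 222, 179.9, 168 and 478 CPM and separated 4-cell embryos 2.17, 1.34, 1.31, 1.92 and 2.06 CPM, a fall of 173-fold (log2 fold change -7.44, SE 0.75, edgeR adjusted p = 1.3e-05). The lowest 2-cell embryo was far above the highest 4-cell embryo. Intact embryos had 199.7, 326, 229, 152 and 62.8 CPM at the 2-cell and 10.4, 5.95, 24 and 19 CPM at the 4-cell stage. The intact 4-cell values lay above all those of separated 4-cell embryos, a comparison that was not tested.

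Zfp709, with 18 fingers and a KRAB pattern (chr8:71882019-71895727), went from 29.5, 74, 21.6, 24.2 and 19.1 CPM to 0.145, 0.128, 1.31, 2.91 and 2.91 CPM in separated embryos (log2 fold change -5.99, SE 1.78, edgeR adjusted p = 0.0363). The groups did not overlap, but dropping separated 2-cell embryo 2, or 1 of the separated 4-cell embryos 2 and 3, ended the call (highest adjusted p 0.117). Intact 2-cell embryos had 0, 49.3, 42.3, 40.6 and 10.1 CPM, so that 1 of the 5 was without a count, and intact 4-cell embryos 0 to 1.81 CPM. Zfp672, a gene of 13 fingers without the KRAB pattern (chr11:58315114-58330339), had 144, 87.8, 115, 142 and 63.5 CPM at the 2-cell and 47.2, 40.2, 14.3, 10.6 and 14.1 CPM at the 4-cell stage (log2 fold change -1.70, SE 0.53, edgeR adjusted p = 0.0426). These groups stood apart by a small margin only. The Zfp672 call ended when 1 of the separated 2-cell embryos 1, 3 and 4 or 1 of the separated 4-cell embryos 2, 3 and 4 was dropped (highest adjusted p 0.166).

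Zfp979 and Zfp982, which lie close on chromosome 4 with Zfp985 between them, fell by similar amounts. Zfp979 (chr4:147611937-147642513) had 609, 414, 278, 655 and 354 CPM in separated 2-cell and 58.5, 50.2, 77.1, 9.05 and 46.7 CPM in separated 4-cell embryos, 7.46-fold lower (log2 fold change -2.90, SE 0.68, edgeR adjusted p = 0.0119). Zfp982 (chr4:147492417-147513486) had 722, 772, 639, 303 and 493 CPM and then 95.6, 49.1, 79.5, 11.1 and 23 CPM, 7.84-fold lower (log2 fold change -2.97, SE 0.57, edgeR adjusted p = 0.00294). In both genes every 4-cell embryo was below every 2-cell embryo, and the batch 2 embryos were the lowest. Intact embryos kept the same order, with Zfp979 at 208 to 1012 CPM in the 2-cell and 16.7 to 187 CPM in the 4-cell stage, and Zfp982 at 144 to 704 CPM and 65 to 131 CPM.

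Another 4 genes were called lower although their embryo groups overlapped, and are named after their values were seen. Zfp677 had 68.9, 3.78, 68.5, 129 and 82.3 CPM in separated 2-cell and 1.09, 0.384, 0.231, 12.9 and 1.79 CPM in separated 4-cell embryos (log2 fold change -6.95, SE 1.92, edgeR adjusted p = 0.0264). A low 2-cell embryo and the highest 4-cell embryo crossed. Its intact embryos had 0, 21.9, 1.8, 24.7 and 1.16 CPM at the 2-cell and 8.29, 1.12, 29.1 and 30.8 CPM at the 4-cell stage (log2 difference 0.81); the difference between the 2 stage differences was not tested. Zfp68 (log2 fold change -2.49, SE 0.77), Zfp655 (-1.39, SE 0.42) and Zfp961 (-1.34, SE 0.42) had edgeR adjusted p of 0.0432, 0.0406 and 0.0448. Each of the 4 calls ended when any 1 of the batch 1 separated 4-cell embryos 2, 3 and 4 was dropped. Those of Zfp68, Zfp655 and Zfp961 also ended on dropping separated 2-cell embryo 2, embryo 4 or a further 2-cell embryo (3 for Zfp68, 1 for Zfp655, 5 for Zfp961), with a highest adjusted p of 0.175.

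Among the genes that rose, Zfp638 had the smallest standard error. It encodes a nuclear RNA- and DNA-binding protein that takes part in silencing unintegrated retroviral DNA. Values were 78.5, 70.4, 49.4, 73.9 and 79 CPM in separated 2-cell and 319, 319.5, 300.4, 162 and 130.3 CPM in separated 4-cell embryos, 4.46-fold higher (log2 fold change 2.16, SE 0.30, edgeR adjusted p = 0.000262), and the batch 2 embryos were the lowest of the 4-cell embryos while still above every 2-cell embryo. Intact embryos had 63 to 126 CPM and 202 to 281 CPM. Zfp644, a partner of the histone methyltransferases G9a and GLP, had 30.8, 118, 59.6, 139 and 61.7 CPM and then 280.3, 275, 580.4, 340.3 and 195 CPM, 4.63-fold higher (log2 fold change 2.21, SE 0.50, edgeR adjusted p = 0.00943). Its groups did not overlap, but the call was lost without separated 4-cell embryo 4 (adjusted p = 0.0659).

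Zfp568, a KRAB protein known to repress a placental transcript of Igf2, had 19.6, 25.1, 1.5, 26.9 and 5.79 CPM in separated 2-cell and 51.8, 75.8, 119, 169.6 and 112 CPM in separated 4-cell embryos, 5.2-fold higher (log2 fold change 2.38, SE 0.68, edgeR adjusted p = 0.0298). The groups did not overlap. Dropping separated 2-cell embryo 5, or 1 of the separated 4-cell embryos 3 and 4, ended the call (highest adjusted p 0.116). Zfp960, a KRAB gene of 13 fingers, had 9.04, 0.526, 1.31, 5.24 and 18.5 CPM and then 106, 87.8, 266, 74.8 and 80.4 CPM, 22.2-fold higher (log2 fold change 4.47, SE 1.09, edgeR adjusted p = 0.0141). Its highest 2-cell embryo stayed well under the lowest 4-cell embryo, and without separated 4-cell embryo 4 the adjusted p was 0.0584.

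Zfp825 and Zfp511 were near or at 0 in the separated 2-cell embryos. Zfp825 held 1 count over the 5 separated 2-cell embryos and 443 over the 3 separated 4-cell embryos of batch 1, a ratio of 1768 (95% counting interval 317 to 69835; edgeR adjusted p = 0.00841), and all 5 separated 4-cell embryos had 3.98, 12.9, 14.4, 8.21 and 3.63 CPM. Zfp511 held no count over the 5 separated 2-cell embryos and 561 counts in batch 1, at least 746-fold higher with 3 counts set for the 2-cell group (edgeR adjusted p = 0.0144), at 2.03, 17, 20.6, 14.8 and 13.3 CPM. Zfp511 was also the only gene of the 119 without a count in any separated embryo of 1 stage and with a count in each of the other. The intervals and bounds cover counting error only, since PCR reads without molecular tags are not independent molecules. Intact 2-cell embryos were mostly but not always at 0, with 0.139, 17.9, 0, 4.88 and 0 CPM for Zfp825 and 0, 0, 0, 17.8 and 0 CPM for Zfp511, against 13.7 to 49.2 CPM and 12.2 to 34.2 CPM in intact 4-cell embryos. Reads of Zfp511 were partly shared with other loci, since 72.2% of its non-zero deposited values were not whole numbers, so its counts are uncertain.

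**Figure D1:**
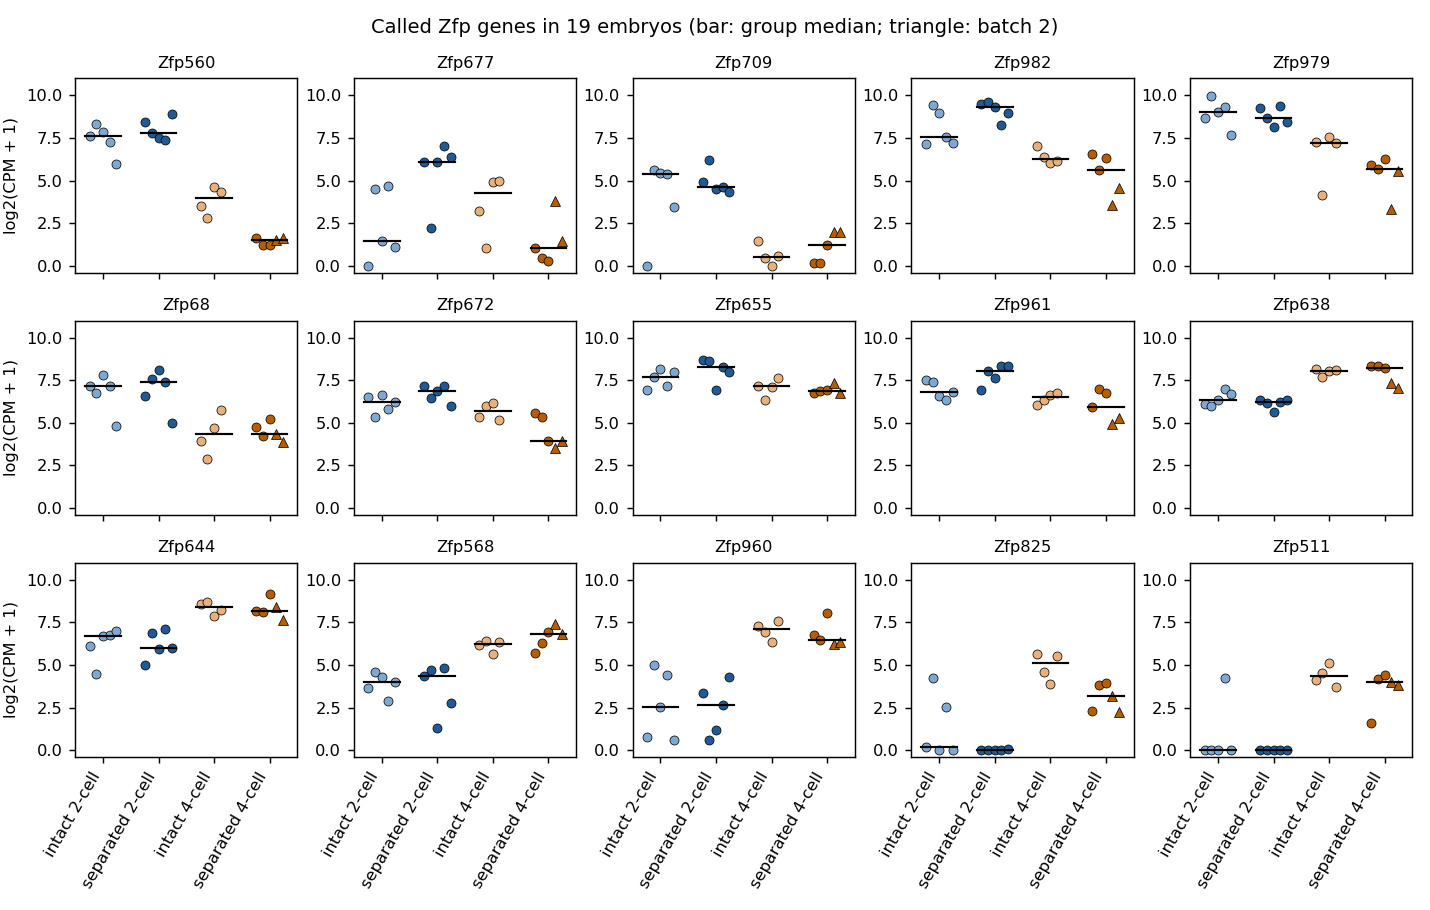
Each panel is 1 of the 15 Zfp genes called between separated 2-cell and 4-cell embryos, from lowest to highest log2 fold change; the vertical axis is log2(CPM + 1), each point is 1 embryo (5, 5, 4 and 5 per group), bars are group medians and triangles are batch 2. Zfp560 drops from at least 168 CPM to at most 2.17 CPM in separated embryos, and Zfp511 lies at 0 in all 5 separated 2-cell embryos.

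Of the 15 called genes, 14 had a stage difference of the same sign in intact embryos, and Zfp677 the opposite sign. In 4 of them (Zfp644, Zfp638, Zfp960 and Zfp568) every intact 4-cell embryo was above every intact 2-cell embryo, and in 3 (Zfp979, Zfp982 and Zfp560) every one was below. Of all 119 members, 12 lay above and 8 below without overlap in intact embryos, and of all genes tested 17% did not overlap in either direction. Over the 119 genes, the median intact stage difference was -0.41 with 54 above 0 and 65 below, beside -4.6e-05 over all genes tested; the intact values also chose the genes. The calls of Zfp979, Zfp638, Zfp560 and Zfp511 held under all 20 alternative settings tried, those of Zfp982, Zfp644 and Zfp825 under 19 and that of Zfp960 under 18.

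**Figure D2:**
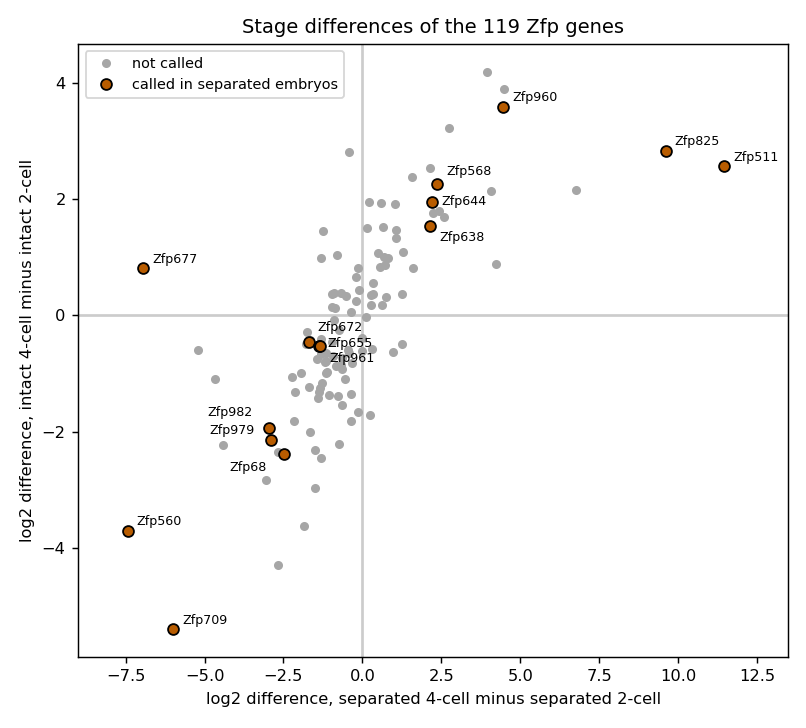
Log2 difference between stages in separated embryos (horizontal axis) against the same difference in intact embryos (vertical axis) for the 119 Zfp genes, 1 point per gene, with the 15 genes called in separated embryos in orange. Zfp677 (-6.95 and 0.81) is the called gene in the upper left quadrant; the values of Zfp825 and Zfp511 depend on the prior count because their 2-cell counts are 1 and 0.

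The 11 genes of the chromosome 4 cluster had 10 log2 fold changes below 0 and 1 above (median -1.30). Over all 14119 genes 7443 were below 0 (median -0.15). Zfp982 and Zfp979 were called lower, as given above (18.2%, beside 4.7% of all genes), and the other 9 were not called. Of all 14119 genes tested, 14.1% did not overlap in either direction, and 979 had every separated 4-cell embryo below every separated 2-cell embryo. Beside those 979 of 14119 genes, 5 of the 11 cluster genes (45.5%) had every separated 4-cell embryo below. These were the 2 called genes and 3 without a call: Zfp978 (log2 fold change -1.68, SE 0.71, edgeR adjusted p = 0.13), Zfp980 (log2 fold change -1.67, SE 0.73, edgeR adjusted p = 0.138) and Zfp984 (log2 fold change -1.30, SE 0.74, edgeR adjusted p = 0.261). Zfp984 shares reads, with 74.4% of its non-zero values not whole. Zfp981 had 62.3, 199, 85.7, 453 and 219 CPM in separated 2-cell and 271, 155, 107, 43.2 and 159 CPM in separated 4-cell embryos, which overlapped (log2 fold change -0.20, SE 0.58, edgeR adjusted p = 0.88). Zfp985 was the gene of the cluster with a value above 0 (log2 fold change 0.72, SE 0.67, edgeR adjusted p = 0.539).

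Summed over the 11 genes, the cluster gave 1374 to 2044 CPM in separated 2-cell embryos and 178 to 674 CPM in separated 4-cell embryos, and 645 to 2422 CPM and 482 to 750.2 CPM in intact embryos of the same stages. As a share of the summed CPM of the 119 genes this was 17.5% to 19.6% in separated 2-cell and 3.23% to 10.9% in separated 4-cell embryos, and 9.86% to 26.9% and 6.95% to 11.4% in intact embryos. The 2 stages did not overlap in separated embryos in either measure, the intact embryos overlapped in both, and no test was made on sums. Much of the sum came from the 2 called genes. In separated 2-cell embryos the means were 586 CPM for Zfp982 and 462 CPM for Zfp979, beside 1731 CPM for the sum. In separated 4-cell embryos they were 51.7 and 48.3 CPM, beside 444 CPM. In the chromosome 17 cluster, 10 of 13 log2 fold changes were below 0 (median -1.18). There 1 gene, Zfp677, was called lower (7.69%, beside 4.7% of all genes). Among the 72 genes in no cluster, 5 were higher and 6 lower (median -0.27). The share called was 15.3%, beside 11.1% of all genes. The 6 genes of the second chromosome 17 cluster (chr17:32765496-33631779) had a median of 0.86 with 3 values on each side of 0 and no call.

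**Figure D3:**
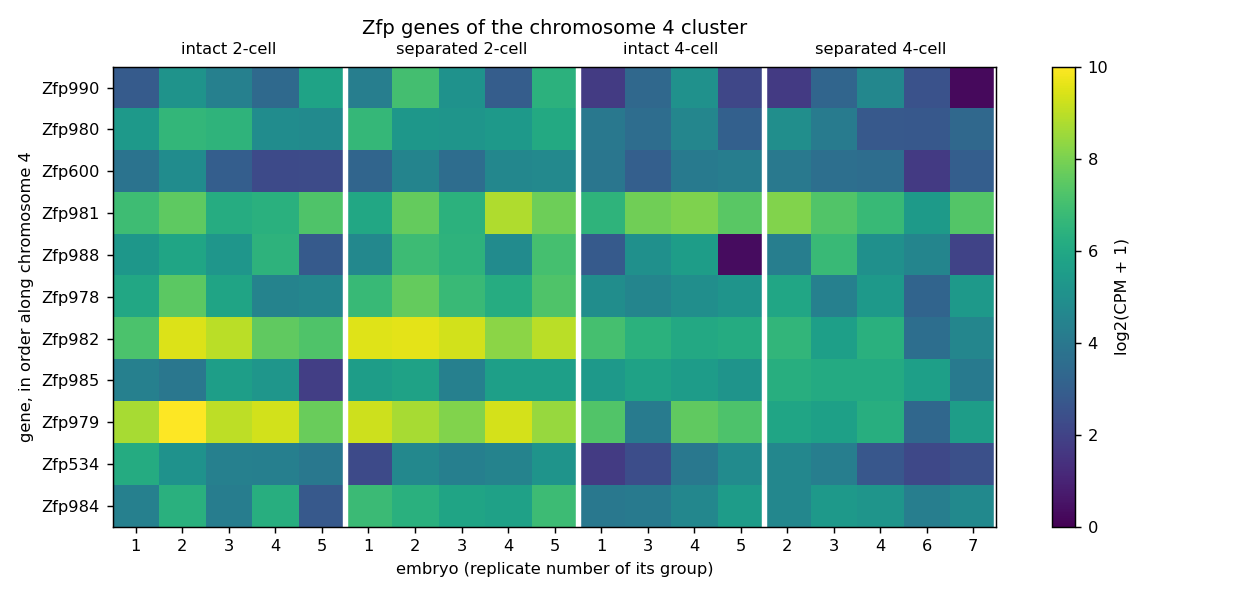
Heat map of log2(CPM + 1) for the 11 Zfp genes of the chromosome 4 cluster (rows, in genome order) in 19 embryos (columns, by group and replicate number). Zfp982 and Zfp979 are bright in both 2-cell groups and darker in both 4-cell groups, while Zfp981 stays bright in all 4 groups.

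Of the 71 genes with the KRAB A pattern, 3 were higher and 7 lower, with a median log2 fold change of -0.68, and of the 47 genes without it, 3 were higher and 2 lower, with a median of -0.01; 20 of 71 and 23 of 47 values lay above 0. The shares called were 14.1% and 10.6%, near the 11.1% of all genes, whose median was -0.15. Split by finger number, the medians were -0.63 for 65 proteins of 10 or more fingers and -0.43 for 53 with fewer. The differences between these groups were not tested.

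Genes of imprint and retroelement silencing were measured in 5 members, of which only Zfp568 was called (20%, beside 11.1% of all genes tested). Zfp57, a maternal and zygotic factor that keeps methylation at imprinting control regions, had 102, 65.3, 57.2, 111 and 85.4 CPM in separated 2-cell embryos. Separated 4-cell embryos had 1.23, 33.1, 22.4, 79.7 and 97.3 CPM, so that the batch 1 embryos were low and the batch 2 embryos in the 2-cell range (log2 fold change -2.15, SE 0.84, edgeR adjusted p = 0.103). Intact 4-cell embryos ranged over 4.66 to 58.3 CPM. Zfp445, the second factor known to guard imprints, overlapped between the stages at 11.1 to 45.7 and 5.57 to 37.1 CPM. Zfp809, which recognises the primer binding site of murine leukaemia viruses, had 37.3 to 166 CPM and then 8.32 to 71.5 CPM (log2 fold change -1.39, SE 0.85, edgeR adjusted p = 0.299). Zfp932, a KRAB repressor of endogenous retroviruses in stem cells, had 29.7 to 150.0 CPM and 34.2 to 159 CPM (log2 fold change 0.69, SE 0.66, edgeR adjusted p = 0.554).

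None of the 3 members known from embryonic stem cell transcription was called, beside 11.1% of all genes tested. Zfp281 had 31.1 to 233 CPM in separated 2-cell and 43.6 to 144 CPM in separated 4-cell embryos (log2 fold change -0.79, SE 0.57, edgeR adjusted p = 0.405). Zfp143, which binds promoters at sites shared with looping factors, had 41.1, 21.7, 37.8, 72.2 and 40.3 CPM and then 139, 80.3, 173, 62.5 and 86.9 CPM, and did not pass the test (log2 fold change 1.62, SE 0.53, edgeR adjusted p = 0.0538). Zfp296, a stem cell factor, split by batch: the separated 4-cell embryos had 45.8, 56.5 and 34.1 CPM in batch 1 and 510.4 and 488 CPM in batch 2, beside 1.88, 73.2, 25.2, 89.8 and 15.7 CPM in separated 2-cell embryos. Every blastomere of batch 2 was above every other blastomere, at 397 to 968 CPM per library total. Batch 2 holds separated 4-cell embryos only.

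Of 6 members that act on RNA or ribosomes, Zfp638 was called and the others were not (16.7%, beside 11.1% of all genes tested). Zfp593, a factor of large ribosomal subunit export, had 19.1, 33.7, 33.1, 21.5 and 26.3 CPM in separated 2-cell and 34.1, 145, 61.1, 37.1 and 41.1 CPM in separated 4-cell embryos. The groups did not overlap, the test fell short (log2 fold change 1.58, SE 0.53, edgeR adjusted p = 0.0593), and 97.1% of its non-zero values were not whole. Zfp622, another factor of large subunit maturation, had a log2 fold change of -0.73 (SE 0.58), Zfp598, a ubiquitin ligase that marks collided ribosomes, 1.06 (SE 0.84), the RNA-binding protein Zfp106 0.32 (SE 0.40) and Zfp830 -1.43 (SE 0.94).

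Among 5 members that serve as chromatin cofactors, Zfp644 was called (20%, beside 11.1% of all genes tested). Zfp131 stayed within 112 to 197 CPM and 152 to 358 CPM (log2 fold change 0.75, SE 0.33, edgeR adjusted p = 0.145), and Zfp410, an activator of the remodeller gene Chd4, within 25.7 to 114 CPM and 14.8 to 54 CPM (log2 fold change -0.89, SE 0.73, edgeR adjusted p = 0.473). Zfp217, found in CoREST complexes, and Zfp592 had values of -0.96 (SE 0.65) and -0.97 (SE 1.03). Zfp207, the spindle and kinetochore protein BuGZ, had 38.1, 58.7, 66.8, 14.2 and 61.7 CPM in separated 2-cell and 26.6, 107, 164, 193 and 231 CPM in separated 4-cell embryos, with overlap through 1 low 4-cell embryo (log2 fold change 1.05, SE 0.54, edgeR adjusted p = 0.207). The SUMO ligase gene Zfp451 overlapped at 0 to 127 CPM and 21.5 to 95.5 CPM (log2 fold change 1.02, SE 1.31, edgeR adjusted p = 0.681).

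The proteins through which KRAB boxes act were read from a list of 29 genes (Trim28, Setdb1 and its cofactors, heterochromatin proteins, NuRD and HUSH subunits, and DNA methylation factors). None was higher and 3 were lower in separated 4-cell embryos, or 10.3% beside 11.1% of all genes, and the median was -0.09. With edgeR 4 of the 29 had an unadjusted p under 0.05, beside 3946 of all 14119 genes. Atf7ip2, a relative of the Setdb1 cofactor Atf7ip, had 429.6, 787, 124, 410.1 and 289 CPM in separated 2-cell and 70.1, 44.7, 36, 15.3 and 42.8 CPM in separated 4-cell embryos (log2 fold change -3.02, SE 0.61, edgeR adjusted p = 0.00446). Gatad2a, a NuRD subunit, had 176, 165, 76.9, 147 and 129 CPM and then 52.9, 33.9, 27.2, 60.5 and 60.8 CPM (log2 fold change -1.87, SE 0.44, edgeR adjusted p = 0.0113). In both genes the stages did not overlap. Mbd2, which links NuRD to methylated DNA, held 4301 counts over the separated 2-cell embryos, at 34.6, 32.5, 48.2, 0.0394 and 35 CPM, and 2 over the separated 4-cell embryos of batch 1, a ratio of 539 (95% counting interval 149 to 4449; edgeR adjusted p = 0.0315). It overlapped through 1 low 2-cell embryo, its intact 2-cell embryos had only 0 to 6.7 CPM, and dropping any batch 1 embryo of the 4-cell stage ended the call (highest adjusted p 0.0983).

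Trim28 itself had 25.3, 40.6, 26.9, 79.3 and 24.3 CPM in separated 2-cell and 53.7, 88.5, 53.5, 176 and 163 CPM in separated 4-cell embryos (log2 fold change 0.73, SE 0.47, edgeR adjusted p = 0.332), and Setdb1 13.9 to 52.5 CPM and 2.08 to 32.9 CPM (log2 fold change -0.70, SE 0.91, edgeR adjusted p = 0.682). Neither passed the test. In intact embryos Trim28 had 22.9, 10.4, 15.6, 26.9 and 26.4 CPM at the 2-cell and 106, 93, 104 and 115 CPM at the 4-cell stage, without overlap (log2 difference 2.36, not tested). Of the 254 Zfp genes of the same symbol pattern below the threshold, 142 could be tested, with 11 higher (7.75%, beside 6.4% of all genes), 2 lower (1.41%, beside 4.7%) and a median of -0.41. Among other zinc finger families, 1 of 33 Zbtb genes was higher and none lower (median -0.04), and 1 of 7 Zkscan genes was higher (median 1.29). None of 6 Zscan genes was called by edgeR (median 1.52). Of these 6, 2 had an edgeR unadjusted p under 0.05, beside 3946 of all 14119 genes.

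In single blastomeres many Zfp genes were present in some libraries and without a count in others. At the 2-cell stage 162 of 1190 gene and library values were 0 (13.6%, beside 13.1% for 6223 other genes of at least 10 CPM in intact embryos). At the 4-cell stage 271 of 1428 were 0 in batch 1 (19%, other genes 17.5%) and 24 of 952 in batch 2 (2.52%, other genes 4.65%). The Zfp genes thus stood near other genes of this level, and the batches stood far apart, in the share of zeros as in library totals. The shallowest library of all (2019179 counts, batch 2) lacked 9 of the 119 genes, while the batch 1 libraries lacked 12 to 33. Only 35 genes had a count in all 30 blastomere libraries, and 82 had one in all 9 intact libraries.

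Within 2-cell embryos, 467 of 595 gene and embryo pairs had counts in both sisters (78.5%), 94 in 1 sister only (15.8%) and 34 in neither; for the other genes 79.0% and 15.8% were in both and in 1. In batch 1 4-cell embryos, 200 of 357 pairs had counts in all 4 sisters (56.0%, other genes 62.2%), 75 in 3, 52 in 2, 28 in 1 and 2 in none. In batch 2, 222 of 238 pairs had counts in all 4 (93.3%, other genes 90.1%). For 53 of the 162 zeros at the 2-cell stage, the level in the sister predicted at least 100 counts. The same held for 4.45% of all 2-cell values of Zfp genes and 4.85% of those of other genes. In batch 1 of the 4-cell stage it held for 48 of the 271 zeros, or 3.36% of values against 2.37% for other genes, and in batch 2 for 3 of 24, or 0.315% against 0.438%. Zfp57 had 115 CPM in blastomere 1 of separated 2-cell embryo 3 and no count in blastomere 2. Zfp677 was without a count in 1 blastomere of embryos 3 and 4 and had 114 and 149 CPM in the sister.

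Some genes differed between stages in how many blastomeres held a count, and the following were named after their values were seen. Zfp239 had a count in 3 of 10 blastomeres at the 2-cell stage (57.3 CPM in the highest) and in all 20 at the 4-cell stage (7.82 to 139.9 CPM). Summed over embryos it missed the threshold, and 1 separated 2-cell embryo overlapped the 4-cell range (log2 fold change 2.75, SE 1.78, edgeR adjusted p = 0.336). Zfp511 had a count in 0 of 10 and 13 of 20 blastomeres, and Zfp825 in 1 and 15. Zfp735 ran the other way, with a count in 9 of 10 2-cell blastomeres, 8 of 12 in batch 1 and 2 of 8 in batch 2, and Zfp616 had a count in 10 of 10, 4 of 12 and 5 of 8. Neither was called (edgeR adjusted p = 0.352 and 0.508). 

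**Figure D4:**
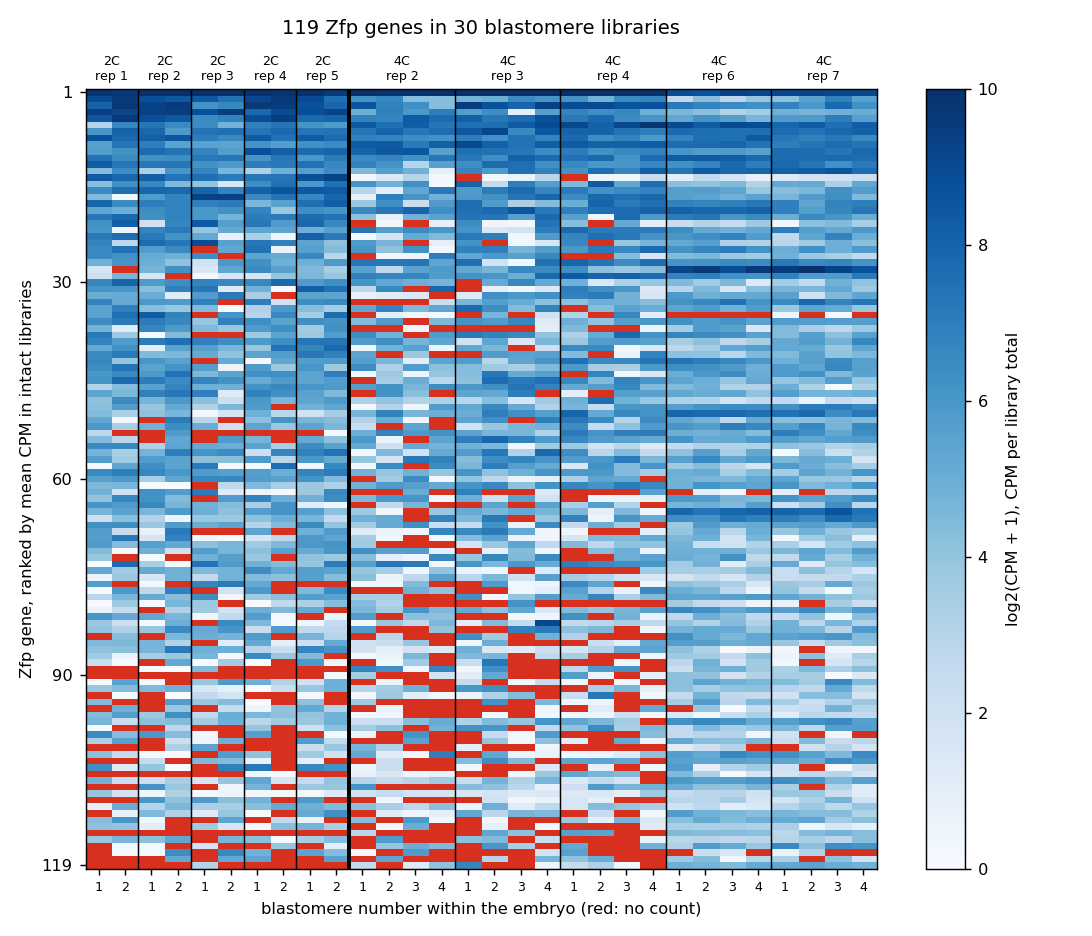
Heat map of log2(CPM + 1), per library total, for the 119 Zfp genes (rows, ranked by mean CPM in intact libraries) in 30 blastomere libraries (columns, grouped by embryo; the thick line parts the 2-cell from the 4-cell stage). Red marks a gene without a count, which is common below rank 30 in 2-cell and batch 1 4-cell libraries and rare in the batch 2 embryos 6 and 7.

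How far sister blastomeres differed was read as the SD of log2 CPM (prior count 2) within embryos. Its median was 1.90 over 103 Zfp genes of at least 10 CPM in these libraries at the 2-cell stage and 2.08 over all 6323 such genes. At the 4-cell stage it was 2.19 over 96 Zfp genes in batch 1 (all genes 2.01) and 0.71 over 95 in batch 2 (all genes 0.55). After a trend of the variance on level was subtracted, 42.7% of Zfp genes and 45.3% of all genes lay above it at the 2-cell stage, 58.3% and 46.1% in batch 1, and 66.3% and 41.7% in batch 2. These shares describe the list and were not tested. Zfp706 had the smallest SD of the 103 genes at the 2-cell stage (0.22), with 934, 823, 1276, 1492, 1042, 1102, 1015, 895, 969 and 794 CPM per library total in blastomeres 1 and 2 of embryos 1 to 5.

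Among genes of at least 50 CPM, the largest excess over the trend at the 2-cell stage belonged to Zfp873 (5.44), Zfp677 (5.42), Zfp57 (3.70), Zfp148 (3.77) and Zfp950 (3.90), each with its sister SD in log2 units. Zfp873 was on in 1 sister and nearly off in the other in several embryos, with 0.0891 and 40.6 CPM in embryo 1, 140.4 and 0.162 in embryo 3, 0.114 and 199.5 in embryo 4 and 0.241 and 98.1 in embryo 5. Only embryo 2 had similar sisters (79.6 and 41 CPM). The variance lay farthest below the trend in Zfp386 (0.50), Zfp942 (0.38), Zfp939 (0.84), Zfp984 (0.38) and Zfp948 (0.53). This ranking favours genes near 50 CPM, where the trend is higher, and does not measure evenness for level. The SD of Zfp939 was near the lower quartile of all genes in the 2 bins around its level (0.85 and 0.73). Zfp942 had 92, 137, 20.9, 22.2, 34.7, 15.7, 43.8, 52.4, 148 and 116 CPM in the same order of sisters, with the embryos farther apart than most sisters.

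At the 4-cell stage the largest excess belonged to Zfp821 (3.09), Zfp143 (2.01), Zfp51 (2.37), Zfp451 (2.23) and Zfp367 (2.08). Zfp143 had 187, 2.87, 0.284 and 177 CPM in the 4 blastomeres of embryo 3, a split of 2 high and 2 low sisters, and 67.7, 74.3, 91.4 and 87.4 CPM in those of the batch 2 embryo 6. Zfp821 had 27, 33.9, 0 and 112 CPM in embryo 2, 22.4, 142, 0 and 13.9 in embryo 3 and 127, 86.2, 213 and 141 in embryo 7. Across all 8 sisters of batch 2, Zfp143 stayed within 67.7 to 142 CPM and Zfp821 within 72.9 to 213 CPM, without a blastomere near 0. With both batches pooled, the variance lay farthest below the trend in Zfp57 (SD 1.15), followed by Zfp979 (1.03), Zfp239 (0.72), Zfp97 (0.76) and Zfp982 (1.46). Within batch 2 this did not hold for Zfp57, Zfp979, Zfp97 and Zfp239, whose variance lay above the trend (by 0.191, 0.398, 0.179 and 0.00219), and within batch 1 not for Zfp982 (above by 0.7). The variance of Zfp57 was -5.12 relative to the trend in batch 1, where 3 blastomeres had no count. It had 0, 0, 0 and 3.6 CPM in embryo 2, 23.4, 50.5, 32.9 and 16.3 in embryo 3 and 16.5, 30.4, 26.7 and 18.1 in embryo 4, and 71.3, 94.3, 176 and 69.8 in embryo 6 and 93, 235, 109 and 161 in embryo 7.

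**Figure D5:**
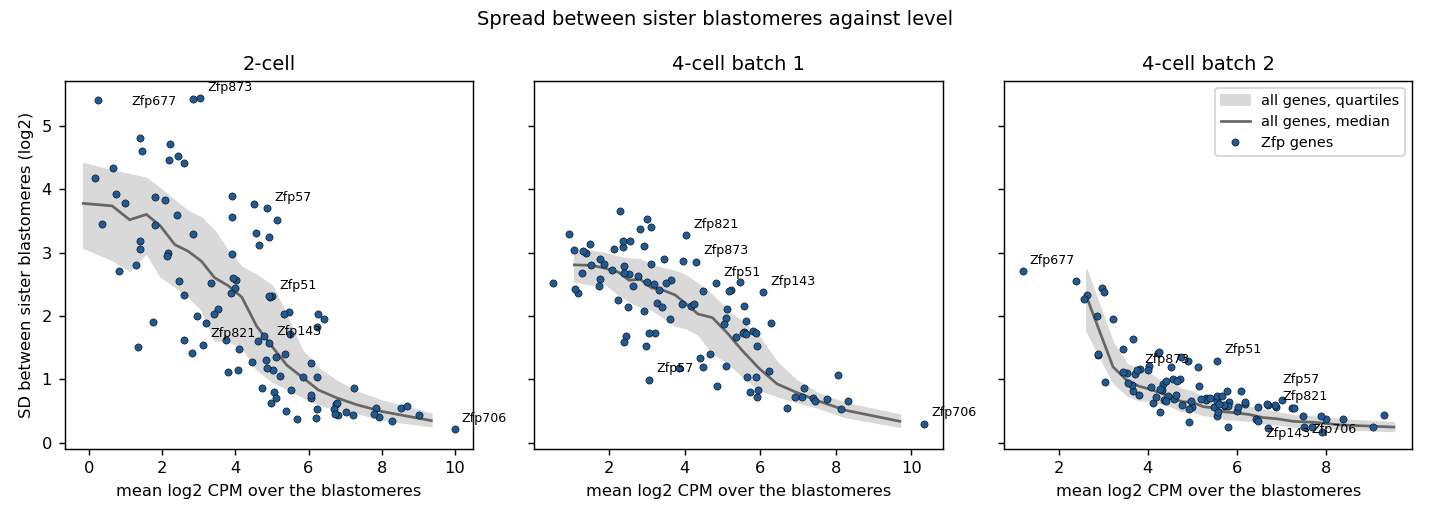
SD of log2 CPM between sister blastomeres (vertical axis) against mean log2 CPM (horizontal axis) for Zfp genes (points) in separated 2-cell embryos and in 4-cell embryos of each batch, over the quartiles and median of all genes in 20 bins of level (grey). Spread falls with level in each panel, Zfp706 lies at the lower right of the 2-cell and batch 1 panels, and the batch 2 panel sits lowest, with a median of 0.71 for the Zfp genes against 2.19 in batch 1.

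Differences between embryos were tested with the sisters as replicates, within each stage and batch, by edgeR. At the 2-cell stage none of 114 Zfp genes was called (4 of 11996 genes, or 0.0333%). Of the 114, 8 had an edgeR unadjusted p under 0.05, beside 821 of the 11996 genes. The DESeq2 likelihood ratio test called 10 of the Zfp genes (all genes 6.08%). In batch 1 of the 4-cell stage none of 103 was called (all genes 0.152%), and DESeq2 called 2 (all genes 2.22%). The edgeR unadjusted p was under 0.05 in 16 of the 103, beside 692 of all 7215 genes. In batch 2, 1 of 117 was called by edgeR (all genes 0.794%) and 7 by DESeq2 (all genes 4.46%). The called gene was Zfp981 of the chromosome 4 cluster (edgeR adjusted p = 0.0031). Its 4 blastomeres had 66.5, 53.5, 58.1 and 46.6 CPM in embryo 6 and 203, 199, 159 and 235 CPM in embryo 7, and every sister of embryo 7 was above every sister of embryo 6. Sisters of batch 1 spanned 46.5 to 373 CPM. Batch 2 holds 2 embryos, so this is a difference between 2 embryos of a batch.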

How the data were processed

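Expression was measured by Smart-seq2 in 39 libraries of mouse embryos and blastomeres. The authors deposited expected counts per gene; per the submitters' processing notes, Trim Galore 0.6.10, STAR 2.7.3a, RSEM 1.2.28 and GRCm38 (mm10) were used. Annotation and strand setting were not given in the sources used here. RSEM shares reads between similar genes, so close paralogs are uncertain.

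Counts were rounded, summed over the blastomeres of an embryo (the deeper sister weighs more) and fitted with edgeR 4.0.16 (TMM, filterByExpr, group and batch as terms, 19 embryos, quasi-likelihood F-test, R 4.3.3) after a test on simulated data. P-values were adjusted by Benjamini-Hochberg over 14119 genes with a threshold of 0.05, and each SE was derived from the fold change and its F statistic. The fit had a biological coefficient of variation of 1.43 and 14 residual degrees of freedom. CPM of embryos are TMM-scaled and those of libraries are per total count, neither per gene length. Sister spread used log2 CPM with a prior count of 2, genes of at least 10 CPM and a lowess trend (span 0.3). A prediction of counts in a blastomere is the mean level of its sisters times its total. DESeq2 1.42.0 and limma 3.58.1 served as alternatives, beside other filters, scalings, sample sets and left-out embryos.

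The members, gene lists and tests were chosen with earlier results of these data known. Named genes were called genes whose embryo groups did not overlap, the 5 highest intact means and genes without a count in 1 stage. The 5 highest and 5 lowest sister variances relative to the trend, above 50 CPM, were also named. So were the genes at the threshold, called embryo differences and the role lists. Replicate numbers were not used as a pairing in the main fit, and the labels do not say whether they pair embryos. No 2 libraries held identical values.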

Additional observations from a re-analysis of the deposited data

Results flagged for a closer look

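In the 15 genes called between stages, 59 groups of 4 or 5 embryos were screened for a highest or lowest embryo that stands far from the others, and 7 did. A chance rate of about 1 in 20 does not apply to groups mostly at 0. Zfp511 in intact and Zfp825 in separated 2-cell embryos are such groups, so no conclusion is drawn from the 7. Zfp655 in separated 4-cell embryos was highest in embryo 6 of batch 2, at 159.6 CPM. Zfp677 in the same group was highest in embryo 6 too, at 12.9 CPM. Zfp960 in separated 4-cell embryos was highest in embryo 4, at 266 CPM, and its call was lost without that embryo. Zfp709 in separated 2-cell embryos was highest in embryo 2, at 74.0 CPM. Zfp825 was highest in intact 2-cell embryo 2, at 17.9 CPM, and in separated 2-cell embryo 5, at 0.0674 CPM, which is 1 count. Zfp511 in intact 2-cell embryos was highest in embryo 4, at 17.8 CPM, with the other 4 at 0.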

How the results depend on the processing

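None of the 15 called members and 3 called partners changed the sign of its stage difference under the 20 alternatives; genes that were not called were not followed. The members called higher (6) and lower (9) in separated embryos became 12 and 20 with DESeq2 and 13 and 28 with each blastomere as a library. Over all genes, calls went from 904 higher and 664 lower of 14119 to 1252 and 1947 of 14119 with DESeq2. With each blastomere as a library they were 2065 and 1804 of 14721. Higher calls were 14 with limma voom and quality weights (all genes 1333) and 3 among members of at least 50 CPM. Lower calls were 15 without the batch term (all genes 1162) and 5 without batch 2 (all genes 575). Leaving out 1 embryo gave 3 to 10 higher and 3 to 9 lower (all genes 482 to 846 and 329 to 679). With the replicate number as a block 3 were higher and 3 lower (all genes 369 and 342). Deviations of same-numbered embryos had correlations from -0.055 to 0.025. Blastomeres of the same embryo had a correlation of only 0.093 in the limma fit, so a shared source could go unseen. These values cannot decide whether the numbers pair embryos, and the labels do not say. Among the silencing partners, 2 were higher without the batch term (all genes 1381) and 7 lower with each blastomere as a library (all genes 1804). The DESeq2 likelihood ratio test called 10 members between 2-cell embryos, 2 in batch 1 and 7 in batch 2. The median sister SD was 1.60 to 2.12 at the 2-cell and 1.70 to 2.24 at the 4-cell stage without 1 embryo each, and 2.32 at the 4-cell stage with a prior count of 0.5. Values without a count at the 2-cell stage were 18.6% after thinning to the lowest library total and 19.5% with a limit of 5 counts. The cause of these shifts was not tested. At this spread, small stage differences were not detectable, and zeros in shallow libraries cannot be told apart from low levels.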
